A study of Mus musculus with 8 samples.

Results

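Steady-state RNA levels of 10 epicardial marker genes were examined in ventricular tissue of mouse embryos at embryonic day 11.5. The genes were chosen by symbol as markers of the embryonic epicardium, and they are Wt1, Tbx18, Tcf21, Aldh1a2, Aldh1a1, Upk3b, Upk1b, Gpm6a, Krt19 and Msln. Each was found on 1 row of the deposited table of 52778 rows, and all 10 were among the 15541 rows tested. Of the 8 RNA-seq libraries, 4 came from conditional knockout embryos (cKO, Rps19bp1 fl/fl; Xmlc2-Cre +/−) and 4 from embryos labelled control, whose alleles the labels do not give further. In cKO embryos Cre driven by Xmlc2 removes floxed Rps19bp1 in cardiomyocytes, and the labels name no treatment. The labels name the strain as C57BL/6 and all libraries as batch 1, and the series text calls the libraries of a group biological replicates. The genotype field reads wild type for all 8 libraries and the extraction text speaks of cultured neurons, so both were set against marker genes.

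The epicardium is the mesothelial sheet that covers the heart. It arises from the proepicardium, a cluster of cells at the venous pole near the septum transversum and liver bud, and spreads over the ventricles at about the stage sampled. Some of its cells later undergo an epithelial to mesenchymal transition and give rise to cardiac fibroblasts and the mural cells of coronary vessels, and the sheet secretes retinoic acid and growth factors that act on the myocardium. Epicardial cells are not the cells in which the labels place the deletion.

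Values are in TPM, a transcript abundance scaled for length and library total, so levels of different genes can be compared. Rps19bp1 itself lay between 11.8 and 19.2 TPM in cKO and between 34.7 and 44.2 TPM in control (limma adjusted p = 0.000508). All 14 listed cardiomyocyte genes were detected, summing to between 48760 and 54558 TPM per library, and 9 of 10 listed neuronal genes had a mean under 1 TPM. Mitochondrial rows took 13.2% to 16.2% of TPM in cKO and 11.4% to 12.2% in control. With mitochondrial and globin rows taken out and the rest rescaled, the log2 changes of the 5 marker genes called below were slightly larger, for example 0.56 in place of 0.52 for Tcf21. TPM keeps no depth, so the number of reads behind a value is unknown. The precision given is the spread between libraries.

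All 10 marker genes were detected in every library, at levels that differed by more than an order of magnitude. Upk3b, which encodes a uroplakin found on mesothelial surfaces, was the most abundant at a mean of 141 TPM over the 8 libraries, and Krt19, a keratin of simple epithelia, followed at 108 TPM. Tcf21 (50.9 TPM), Tbx18 (39.3 TPM), Aldh1a2 (36.001 TPM), Wt1 (33.4 TPM) and Upk1b (25.2 TPM) came next. Gpm6a (9.30 TPM), Aldh1a1 (7.66 TPM) and Msln (4.22 TPM) were the lowest. Upk3b exceeded Krt19 in 8 of 8 libraries, whereas Aldh1a2 exceeded Wt1 in 4 of 8, so the order of these neighbours was not fixed. Tbx18 exceeded Aldh1a2 in 7 of 8 libraries with overlapping ranges in both groups.

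Of the 10 marker genes, 5 rose in cKO and 0 fell. The 5 were Tcf21, Gpm6a, Upk3b, Tbx18 and Wt1, with ratios of mean TPM between 1.24 and 1.45 (limma on log2(TPM + 1), adjusted over all tested rows, threshold 0.05). Over all tested rows 2.16% passed as higher, 4.23% as lower and 6.4% in either direction. Higher rows were 33.8% of all 994 calls, a share that was 50.2% after quantile normalization, 47.8% after median-ratio scaling and 49.9% after rescaling without mitochondrial and globin rows. Under these 3 scalings 5, 5 and 6 of the 10 genes rose. The 4 cKO libraries lay wholly above the 4 control libraries for 6 of the 10 genes, the same 5 and Aldh1a2, against 5.33% of all tested rows. For 0 genes they lay wholly below, as did 10.3% of all tested rows. The median log2 change of the 10 genes was 0.35, beside -0.02 for all tested rows. In bulk tissue a larger share of epicardial cells and more RNA of these genes per cell cannot be told apart.

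**Figure D1:**
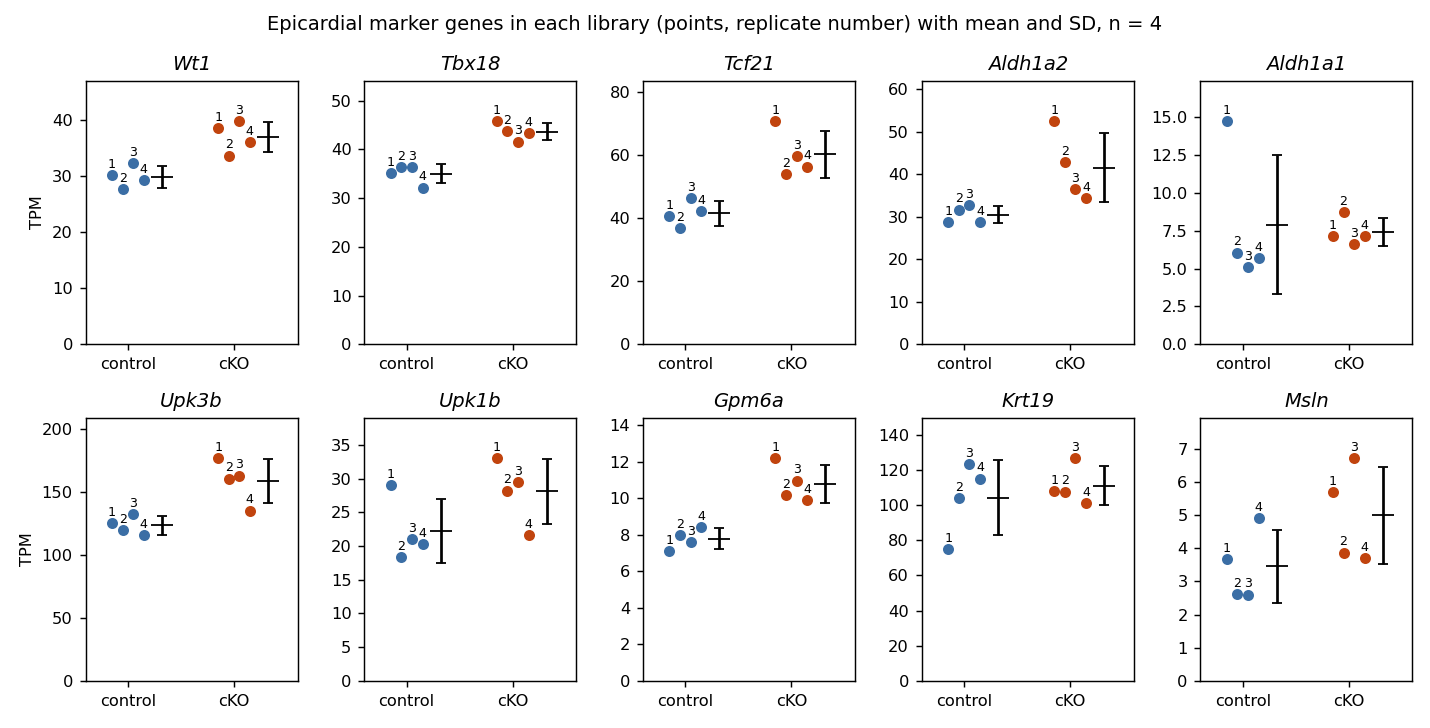
TPM of the 10 epicardial marker genes in each control and cKO library, with the replicate number above each point and the mean and SD of 4 libraries beside each group; every axis starts at 0. The groups separate for Wt1, Tbx18, Tcf21, Aldh1a2, Upk3b and Gpm6a, and 1 control library stands at 14.8 TPM for Aldh1a1.

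The transcription factors among the marker genes, Tcf21, Tbx18 and Wt1, were higher in every cKO library than in any control library. Tcf21 (chr10:22817263-22820143, minus strand, GRCm38) encodes a basic helix-loop-helix factor needed for cardiac fibroblast formation from the epicardium. Its cKO libraries 1 to 4 held 70.8, 54.003, 59.7 and 56.4 TPM, and its control libraries 1 to 4 held 40.6, 36.9, 46.3 and 42.3 TPM. cKO library 1 was the highest by a clear gap, and the lowest cKO library still exceeded the highest control library. The mean of Tcf21 was 60.2 ± 7.43 TPM in cKO and 41.5 ± 3.90 TPM in control (SD, n = 4). It thus rose by 0.52 on the log2 scale (SE 0.0910), and the adjusted p from limma was 0.0121. The exact permutation p (two-sided) was 0.0286, the smallest that the 70 ways of dividing 8 libraries into groups of 4 can give. The row overlaps the predicted gene Gm10824 on the opposite strand, which had a mean of 0.410 TPM.

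Tbx18 (chr9:87702800-87731260, minus strand), a T-box factor marking proepicardium and epicardium, had the smallest standard error of the 10. It stood at 45.8, 43.7, 41.6 and 43.4 TPM in cKO libraries 1 to 4 and at 35.1, 36.4, 36.4 and 32.2 TPM in control libraries 1 to 4. The gap between the groups exceeded the range within either group's libraries. Tbx18 rose by 0.31 on the log2 scale (SE 0.0548, limma adjusted p = 0.0128, exact permutation p = 0.0286), from 35.01 ± 2.003 to 43.6 ± 1.73 TPM (SD, n = 4).

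Wt1 (chr2:105126529-105173614, plus strand) encodes a zinc finger factor that acts in epicardial cells during their transition to mesenchyme. The cKO libraries 1 to 4 held 38.5, 33.6, 39.8 and 36.1 TPM of Wt1 and the control libraries 30.2, 27.7, 32.3 and 29.3 TPM. The groups did not overlap, but the lowest cKO library and the highest control library were close. Wt1 rose by 0.30 on the log2 scale (SE 0.0665), with an adjusted p of 0.0302 in limma and an exact permutation p of 0.0286. This call was lost without cKO libraries 1 or 3 and without control libraries 1, 2 or 4, where the limma adjusted p lay between 0.0657 and 0.0782 and the log2 change between 0.27 and 0.31.

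The aldehyde dehydrogenases that make retinoic acid differed from each other in spread. Aldh1a2 (chr9:71215789-71296243, plus strand) encodes the main retinoic acid synthesizing enzyme of the embryonic epicardium. It was at 52.4, 42.9, 36.6 and 34.3 TPM in cKO libraries 1 to 4 and at 28.8, 31.7, 32.7 and 28.7 TPM in control libraries 1 to 4. cKO libraries 1 and 2 were far above the control range and cKO libraries 3 and 4 just above it. The log2 change of 0.42 (SE 0.116) missed the threshold (limma adjusted p = 0.0613, exact permutation p = 0.0286). It passed without cKO library 4 (log2 change 0.50, limma adjusted p = 0.0320), and without cKO library 1 it was 0.30 (limma adjusted p = 0.0921).

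Aldh1a1 (chr19:20492583-20643463, plus strand), a related retinaldehyde dehydrogenase, gave no difference beyond its spread. The cKO libraries 1 to 4 held 7.17, 8.75, 6.63 and 7.13 TPM. Control library 1 held 14.8 TPM, whereas control libraries 2 to 4 held 6.05, 5.11 and 5.69 TPM. With all libraries the log2 change was 0.03 with a 95% interval from -0.54 to 0.60 (limma adjusted p = 0.958), while the mean TPM was lower in cKO (7.42 against 7.90). Without control library 1 the log2 change was 0.34 (limma adjusted p = 0.105), and every cKO library then exceeded every remaining control library.

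Among the surface proteins of the mesothelial sheet, Upk3b and Gpm6a passed the test. Upk3b (chr5:136038496-136044993, plus strand) was at 177, 161, 163 and 135 TPM in cKO libraries 1 to 4 and at 126, 119.9, 133 and 116 TPM in control libraries 1 to 4. cKO library 4 lay just above the highest control library, and the other cKO libraries were well above it. Upk3b averaged 159 ± 17.5 TPM in cKO against 124 ± 7.23 TPM in control (SD, n = 4). It rose by 0.36 on the log2 scale (SE 0.0789), with an adjusted p of 0.0297 in limma and an exact permutation p of 0.0286. Leaving out any library other than cKO library 4 or control library 3 ended this call, with limma adjusted p between 0.0597 and 0.0741 and log2 changes between 0.30 and 0.37.

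Gpm6a (chr8:54779434-55060878, plus strand) encodes a membrane glycoprotein of neurons that is also a marker of mesothelial cells. The values were 12.2, 10.2, 10.96 and 9.89 TPM in cKO libraries 1 to 4 and 7.11, 7.99, 7.60 and 8.44 TPM in control libraries 1 to 4. No cKO library reached down to the control range. Gpm6a rose by 0.42 on the log2 scale (SE 0.0807, limma adjusted p = 0.0179, exact permutation p = 0.0286). The limma adjusted p was 0.0513 without control library 1 and 0.0516 without control library 3, just short of passing. A predicted row inside Gpm6a on the opposite strand had a mean of 0.0123 TPM.

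Upk1b, Msln and Krt19 overlapped between the groups. Upk1b (chr16:38773182-38800203, minus strand), a tetraspanin uroplakin, was at 33.1, 28.2, 29.5 and 21.6 TPM in cKO libraries 1 to 4 and at 29.1, 18.4, 21.002 and 20.3 TPM in control libraries 1 to 4. Control library 1 was high and cKO library 4 low for Upk1b, and its log2 change was 0.33 (95% interval 0.000373 to 0.66, limma adjusted p = 0.210, exact permutation p = 0.114). Without cKO library 4 or control library 1 that change was 0.45 or 0.46, still short of the threshold (limma adjusted p = 0.0844 and 0.0830). Msln (chr17:25748613-25754378, minus strand), which encodes mesothelin, ranged from 3.69 to 6.73 TPM in cKO and from 2.60 to 4.91 TPM in control, with a log2 change of 0.43 (95% interval -0.02 to 0.87, limma adjusted p = 0.230). Krt19 (chr11:100140810-100145926, minus strand) ranged from 101 to 127 TPM in cKO and from 74.9 to 123 TPM in control. The log2 change of Krt19 was 0.11 (95% interval -0.20 to 0.41, limma adjusted p = 0.683), and without control library 1, its lowest, it was -0.04.

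**Figure D2:**
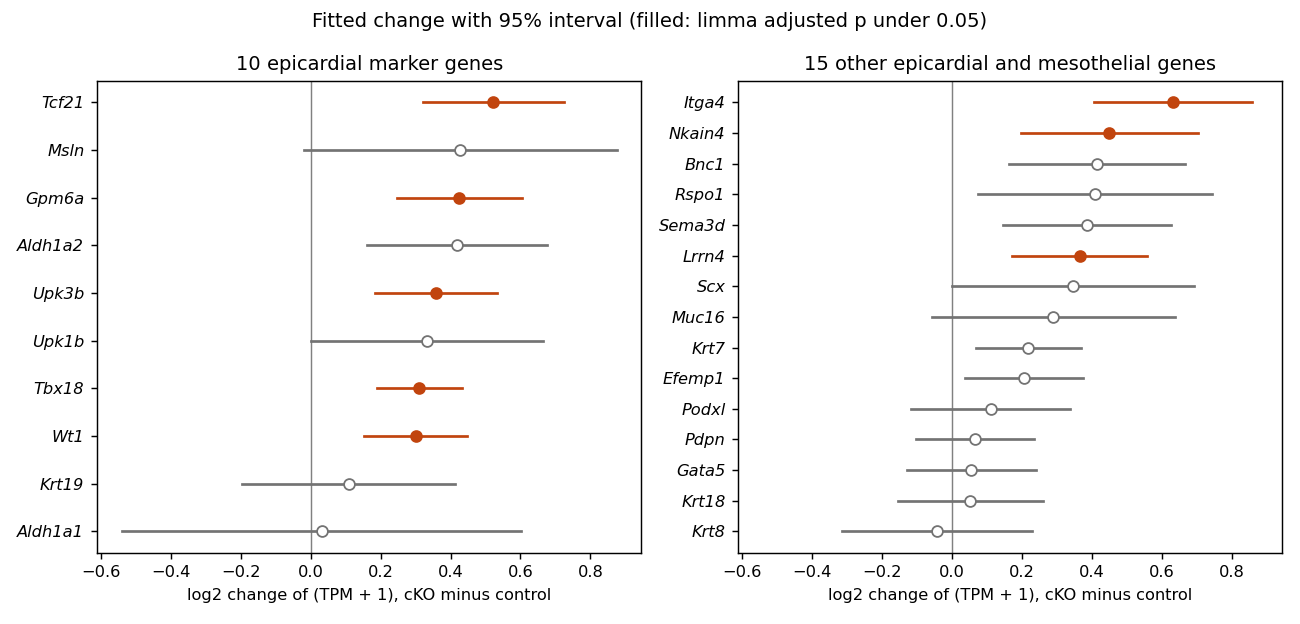
Fitted log2 change of (TPM + 1) between cKO and control with its 95% interval for the 10 epicardial marker genes (left) and 15 other epicardial and mesothelial genes (right); filled points passed the limma threshold. Most points lie right of 0, and Itga4 at 0.63 and Tcf21 at 0.52 are the highest of their panels.

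The order of the libraries was partly shared among the marker genes. cKO library 1 was the highest cKO library for 6 of the 10 genes and cKO library 4 the lowest for 6 of the 10. Control library 3 was the highest control library for 6 of the 10, whereas the lowest control library was spread over replicates 1 to 4 (2, 3, 2 and 3 genes). The summed TPM of the 10 genes was 551, 494, 522 and 449 in cKO libraries 1 to 4 and 389.8, 391, 440.2 and 403.009 in control libraries 1 to 4. The sum is led by Upk3b and Krt19. Aldh1a1 and Krt19 departed most in control library 1, where Aldh1a1 stood at 0.92 and Krt19 at -0.50 relative to its own mean of log2(TPM + 1). On the same scale Upk1b stood at 0.23 in control library 1 and Msln at 0.23 in control library 4.

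**Figure D3:**
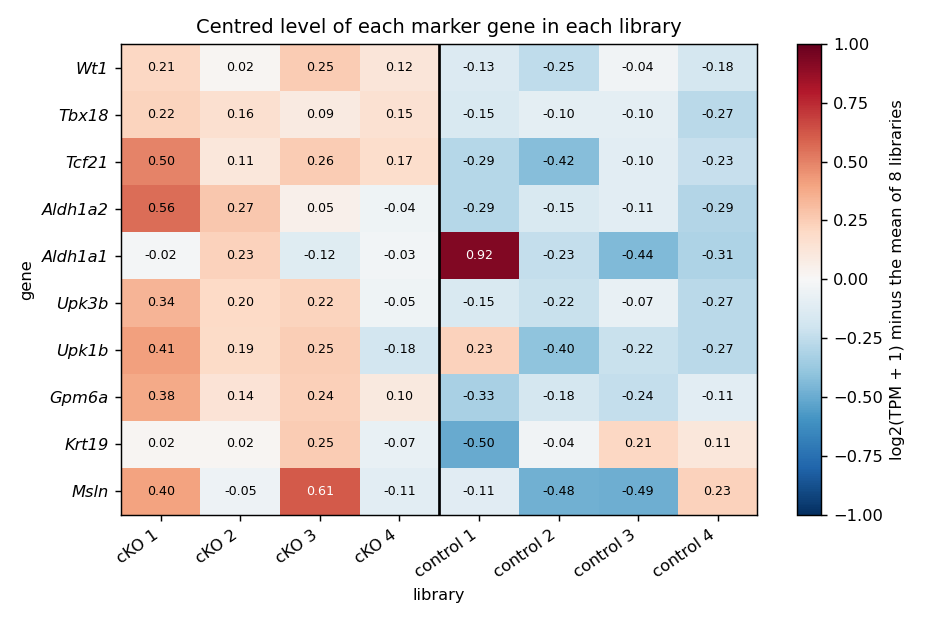
Heat map of log2(TPM + 1) of each epicardial marker gene minus its mean over the 8 libraries, with the value printed in each cell; cKO libraries are left of the line and control libraries right. Tcf21 and Aldh1a2 are highest in cKO 1 (0.50 and 0.56), and control 1 departs most for Aldh1a1 (0.92) and Krt19 (-0.50).

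To ask whether the marker genes changed by different amounts, each was divided by Wt1 within the same library. Tcf21 was the one gene whose ratio to Wt1 did not overlap between the groups. The log2 ratios of (TPM + 1) were 0.86, 0.67, 0.57 and 0.63 in cKO libraries 1 to 4 and 0.42, 0.40, 0.51 and 0.52 in control libraries 1 to 4, a difference of 0.22 (exact permutation p = 0.0286, Benjamini-Hochberg adjusted over 9 ratios p = 0.257). In total 0 of 9 ratios passed after adjustment by the exact permutation test, and 1 had an unadjusted p under 0.05. With 9 ratios and a smallest p of 0.0286, at least 6 ratios would have to reach that p for any to pass. The other differences ran from -0.27 for Aldh1a1 to 0.13 for Msln, with exact permutation p between 0.229 and 0.914. For Tbx18 the difference was 0.01, with SDs of 0.127 in cKO and 0.110 in control. Unequal changes among the 10 genes were therefore not shown.

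**Figure D4:**
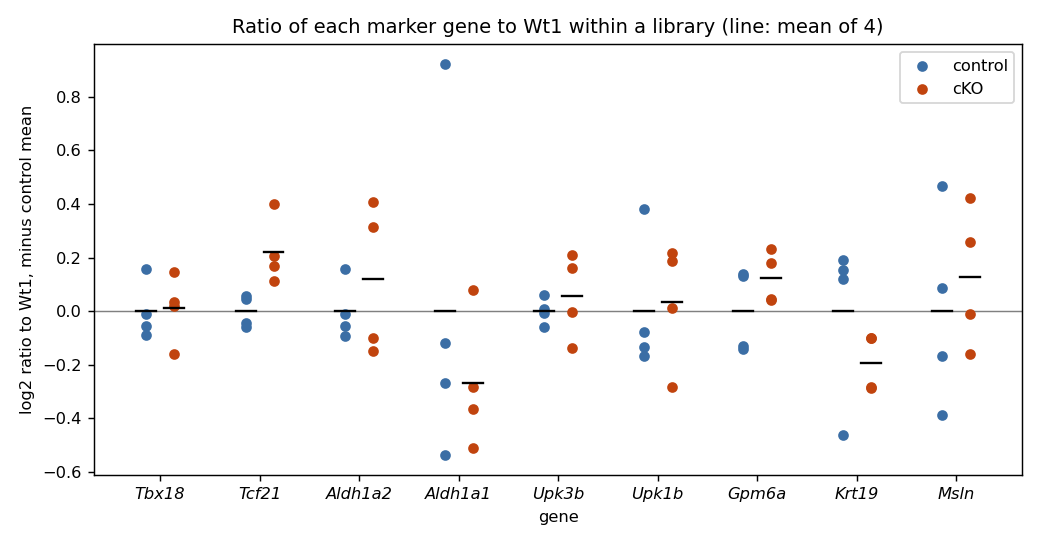
Log2 ratio of (TPM + 1) of each epicardial marker gene to Wt1 in each library, minus the control mean of that ratio; points are libraries and lines the mean of 4. The cKO points of Tcf21 all lie above its control points, by 0.22 on average, and the groups overlap for the other 8 genes.

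The calls differed in how far they depended on the settings. Tbx18 passed under 18 of 18 alternative settings, which included leaving out each library in turn (limma adjusted p between 0.00752 and 0.0456, log2 change between 0.27 and 0.36). Tcf21 passed under 17 of 18, the exception being no filter on low values (limma adjusted p = 0.0579). Gpm6a passed under 14, Wt1 under 11 and Upk3b under 10 of the 18. Aldh1a2 passed under 2, and Aldh1a1, Upk1b, Krt19 and Msln under 0 of those run. The log2 change was above 0 under every alternative for 8 genes and fell below 0 under 4 for Aldh1a1 and 1 for Krt19, each of them a left-out library. The number of the 10 genes that rose was between 2, without control library 1, and 6, without cKO library 4, when single libraries were left out. It was 3 without cKO libraries 1 or 3 or control libraries 2 or 4.

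**Figure D5:**
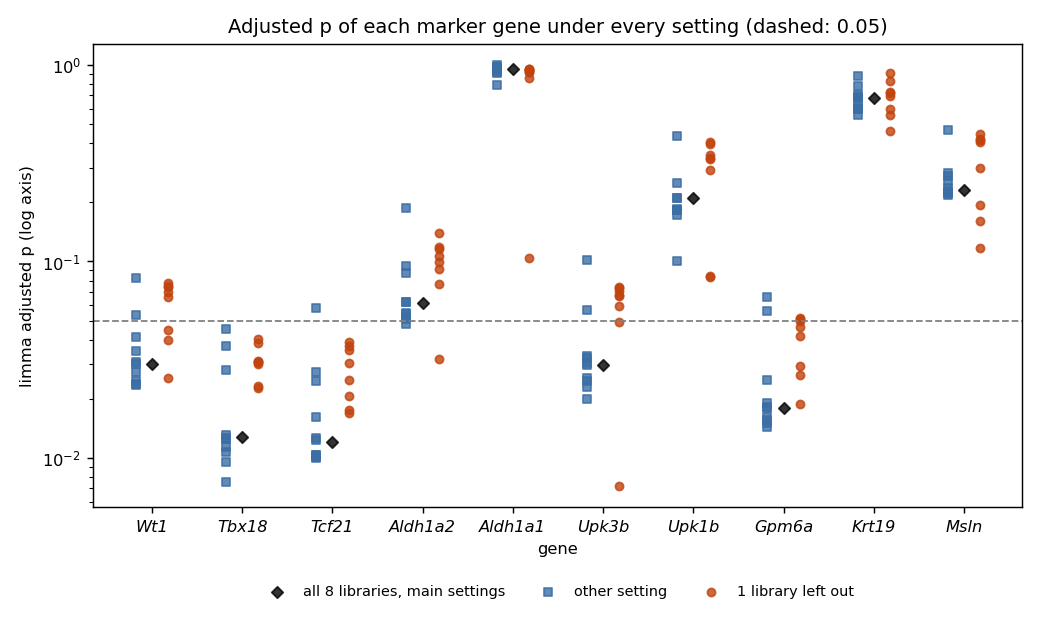
Limma adjusted p (log axis) of each epicardial marker gene with all 8 libraries under the main settings (diamonds), under other settings (squares) and with 1 library left out (circles); the dashed line is the threshold of 0.05. Tbx18 stays below the line throughout (highest 0.0456), whereas Wt1 and Upk3b lie on both sides.

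Start-site sequences are shown for 4 of the genes that rose, because they are the ones with an entry in the table of RefSeq start sites (GRCm38.p6). Each sequence is the 250 bases before an annotated start, read on the gene's strand, and capitals mark matches on either strand to 4 motifs. The motif of TEAD factors is CATTCC. The motif of GATA factors was searched as AGATAA. The half-site of nuclear receptors, among them those for retinoic acid, was searched as AGGTCA. The GC box is GGGCGG. The windows are chr10:22820144-22820393 (minus) for Tcf21, chr9:87731261-87731510 (minus) for Tbx18, chr5:136038246-136038495 (plus) for Upk3b and chr8:54779184-54779433 (plus) for the upstream start of Gpm6a.
Tcf21: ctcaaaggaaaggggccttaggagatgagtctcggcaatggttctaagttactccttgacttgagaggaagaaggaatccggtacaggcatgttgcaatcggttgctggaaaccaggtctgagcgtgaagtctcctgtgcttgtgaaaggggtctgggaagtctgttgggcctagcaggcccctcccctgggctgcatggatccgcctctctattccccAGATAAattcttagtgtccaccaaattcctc
Tbx18: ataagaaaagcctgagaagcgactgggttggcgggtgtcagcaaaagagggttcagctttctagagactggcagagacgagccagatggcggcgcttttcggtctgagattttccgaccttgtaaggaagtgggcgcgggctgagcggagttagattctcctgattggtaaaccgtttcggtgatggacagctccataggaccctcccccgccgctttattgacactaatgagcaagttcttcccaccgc
Upk3b: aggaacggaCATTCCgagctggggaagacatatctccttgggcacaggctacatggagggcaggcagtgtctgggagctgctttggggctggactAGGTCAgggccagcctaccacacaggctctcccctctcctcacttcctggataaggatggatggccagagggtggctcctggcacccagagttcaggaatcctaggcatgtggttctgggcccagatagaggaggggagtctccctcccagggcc
Gpm6a: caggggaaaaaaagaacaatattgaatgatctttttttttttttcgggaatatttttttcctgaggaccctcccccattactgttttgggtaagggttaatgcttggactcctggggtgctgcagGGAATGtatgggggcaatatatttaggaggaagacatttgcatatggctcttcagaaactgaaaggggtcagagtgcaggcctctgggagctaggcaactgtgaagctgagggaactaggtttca
Upk3b held 1 match to CATTCC and 1 to AGGTCA, Gpm6a 1 to CATTCC on the opposite strand and Tcf21 1 to AGATAA, and no matches overlapped. Over 8 windows of 6 marker genes (those above, Aldh1a2, Aldh1a1 and second starts), the TEAD motif was in 3, the GATA motif in 2, the half-site in 1 and the GC box in 0. Of all 32851 such windows in RefSeq, 12.6% held the TEAD motif, 9.99% the GATA motif and 32.7% the GC box, and 4607 held the half-site. The 8 windows differed in base composition, from 33.6% G and C at the second start of Gpm6a to 77.6% at Aldh1a2, and the 4 printed ones from 44.4% in Gpm6a to 60.8% in Upk3b. A match describes letters in a window and not a site of binding.

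Other epicardial and mesothelial genes were then examined. Of 17 listed, 15 were tested, 3 rose and 0 fell, with a median log2 change of 0.29. For this list and those below, the background over all tested rows was 2.16% higher and 4.23% lower, with a median of -0.02. Itga4, the integrin subunit that anchors the epicardium to Vcam1 on the myocardium, was at 14.8, 14.5, 13.9 and 14.6 TPM in cKO libraries 1 to 4 and at 9.45, 7.13, 10.9 and 8.84 TPM in control libraries 1 to 4. Its 4 cKO libraries were nearly level and all above control, and it rose by 0.63 (SE 0.102, limma adjusted p = 0.00915). Itga4 passed under all 18 alternative settings, and its ligand Vcam1 stood at 55.7 against 54.8 TPM (log2 change 0.02, limma adjusted p = 0.837). Lrrn4 (log2 change 0.36, limma adjusted p = 0.0383) and Nkain4 (0.45, limma adjusted p = 0.0447), both mesothelial surface genes, rose as well. Without cKO library 1, cKO library 3 or control libraries 1, 2 or 3 the list's count of genes that rose was 1.

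Genes that supply or read retinoic acid beyond the enzymes above gave no call. Of 18 listed, 13 were tested, with a median log2 change of 0.14. By limma 0 passed and 2 of the 13 had an unadjusted p under 0.05, beside 3687 of all 15541 tested rows (23.7%), so the list held no more of them than that background. Rxrg, a retinoid X receptor, was at 1.68 ± 0.366 TPM in cKO and 0.928 ± 0.201 TPM in control (SD, n = 4, limma adjusted p = 0.0682).

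Signals and receptors that connect epicardium and myocardium included 4 genes that rose and 0 that fell of 28 tested (31 listed), with a median log2 change of 0.10. Pdgfra, a receptor of epicardium-derived fibroblast precursors, was at 34.6, 30.3, 31.04 and 30.4 TPM in cKO libraries 1 to 4 and at 15.3, 15.4, 24.04 and 24.8 TPM in control libraries 1 to 4. Its control libraries fell into a low and a high pair, both under the cKO range, and it rose by 0.68 (SE 0.152, limma adjusted p = 0.0322). Tgfb2 (log2 change 0.41, limma adjusted p = 0.0471) and Tgfb3 (0.36, limma adjusted p = 0.0320), ligands known to drive mesenchymal transition, and Robo2 (0.46, limma adjusted p = 0.0379), a Slit receptor, rose too. The count of this list was 0 without any of cKO libraries 1 and 3 and control libraries 1 and 2, 1 without cKO library 2, and 2 without cKO library 4 or control libraries 3 or 4.

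Of 13 tested genes of the epithelial to mesenchymal transition (14 listed), 2 rose and 0 fell, with a median log2 change of 0.29. They were Fn1, the matrix protein fibronectin (0.39 on the log2 scale, limma adjusted p = 0.0355), and Mmp2, a matrix protease (0.49, limma adjusted p = 0.0493). The count was 0 without any of cKO libraries 1, 2 and 3 and control libraries 1 and 2, and 1 without any of the other 3. Without control library 3 that 1 was another gene of the list, as Fn1 and Mmp2 both missed the threshold (limma adjusted p = 0.0530 and 0.0751). The transcription factors Snai1, Snai2, Twist1, Zeb1 and Zeb2, named after their values were seen, did not pass, with limma adjusted p between 0.0521 for Snai2 and 0.917 for Twist1.

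Genes of other cell types that a dissected ventricle could hold moved in part with the marker genes. The mesenchymal list summed to between 952 and 1156 TPM in cKO and between 746 and 897 TPM in control. Of its 10 genes 3 rose and 1 fell, with a median log2 change of 0.36. Col3a1, a fibrillar collagen, was at 293 ± 12.8 TPM in cKO and 222 ± 12.98 TPM in control (SD, n = 4), and rose with a limma adjusted p of 0.00459. Col1a2 and Dcn also rose and Fbln1 fell (log2 change -0.28, limma adjusted p = 0.0103), all 3 named after their values were seen. The cardiomyocyte list had 0 genes that rose and 1 that fell of 14 tested (median log2 change -0.06). The 1 was Nkx2-5, a cardiac transcription factor (205 ± 37.7 TPM in cKO, 282 ± 27.7 TPM in control, SD, n = 4, limma adjusted p = 0.0453), and its call held under 5 of 18 alternative settings. In the list of 12 endocardial and endothelial genes limma gave 0 calls and 6 genes with an unadjusted p under 0.05 (23.7% of all tested rows), with a median of 0.13. Npr3, a receptor marking endocardium, had the smallest p of them (log2 change 0.25, limma adjusted p = 0.0561). The part of these shifts in the higher marker levels was not tested.

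Markers of other embryonic tissues, some of which also hold Wt1-expressing cells, were mostly low. Mesothelium of tissues next to the heart had no list of its own. The nephric and gonadal list (8 of 9 genes with a mean under 1 TPM) summed to between 1.82 and 4.40 TPM, that of foregut and lung (8 of 8) to between 0.611 and 1.41 TPM, and that of body wall and skeletal muscle (13 of 13) to between 0.133 and 0.540 TPM. The 1 tested gene of the nephric list, Lhx9, stood at 0.11 on the log2 scale (limma adjusted p = 0.770), and at -0.00931 without control library 2. Of 10 hepatic and septum transversum genes 7 had a mean under 1 TPM, Fgb was listed at 0 in all libraries and Alb at 0 in all cKO libraries. Hhex, a homeobox factor of liver and endothelial precursors, was the most abundant of the list, at 6.95 to 9.87 TPM over the 8 libraries, and Apoa2, named after its values were seen, ranged from 1.44 to 4.02 TPM. The hepatic list summed to between 11.7 and 28.8 TPM in cKO and between 10.8 and 13.9 TPM in control. Its highest sum was in cKO library 1, where Afp, the fetal serum protein of liver and yolk sac, was at 9.92 TPM against 0.142 to 0.469 TPM in the other cKO libraries and 0 to 0.0792 TPM in control. Apoa1, named after its values were seen, was at 2.94 TPM in that library and at most 0.644 TPM in the others. Any link between these hepatic genes and the marker levels was not tested. cKO library 1 was also the highest cKO library for 6 of the 10 epicardial marker genes. Without it Tcf21 (log2 change 0.44, limma adjusted p = 0.0250), Tbx18 (0.29, limma adjusted p = 0.0405) and Gpm6a (0.37, limma adjusted p = 0.0465) still passed, and Upk3b (0.30, limma adjusted p = 0.0711) and Wt1 (0.28, limma adjusted p = 0.0782) did not.

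Further lists gave no gene that passed limma's test in either direction. The erythroid list ranged from 1760 to 3769 TPM in cKO and from 1975 to 7176 TPM in control, with 0 of 9 genes at an unadjusted p under 0.05 (23.7% of all tested rows). The atrial list had 2 of 7 tested genes at an unadjusted p under 0.05, near the same background. Nppa, a natriuretic peptide gene shared by atrium and trabeculae, was at 5844 ± 1139 against 4276 ± 377 TPM (SD, n = 4, limma adjusted p = 0.0768). Neural crest and Schwann cell genes summed to between 98.6 and 133 TPM, nearly all of it Ednrb.

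Candidate rows were the tested rows on the standard chromosomes outside the 10 marker genes, with predicted, clone and pseudogene names left out. Those most like the mean centred profile of the 10 marker genes over the 8 libraries were Snhg18, Slc38a7, Crem, Daam2 and Zfp469. The measure was the root mean square difference of centred log2(TPM + 1), which was 0.0422 for Snhg18 and between 0.0495 and 0.0550 for the others. Among the marker genes themselves it ran from 0.0658 for Upk3b and 0.0819 for Wt1 to 0.409 for Aldh1a1. Snhg18, a host gene of small nucleolar RNA, stood at 16.2 ± 1.44 TPM in cKO and 12.7 ± 0.348 TPM in control (SD, n = 4). The likeness is a description of 8 libraries, and the rows were chosen as the closest among these candidates.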

How the data were processed

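RNA of ventricular tissue was compared between 4 cKO and 4 control libraries, whose titles say heart. The authors deposited 1 table of TPM values, each library summing to about 1000000. Per the submitters' processing notes the build was GRCm38, and FastQC, Trim Galore 0.6.7, HISAT2 2.2.1, StringTie 2.2.1, featureCounts and DESeq2 were used, with roles not given in the sources used here. Annotation and strand setting are not stated. All 10 marker genes have the same position in the RefSeq table of GRCm38.p6. Depth is unknown, so no counting error was computed.

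Rows with a mean of at least 1 TPM were tested as log2(TPM + 1) with limma 3.58.1 in R 4.3.3 (lmFit, eBayes with trend, two-sided, Benjamini-Hochberg over 15541 rows). A log2 change on this scale understates that of low genes. The procedure was tested on simulated data with independent noise in each row. Library effects shared between genes were not simulated. Exact permutation tests ran in Python 3.11.15.

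Genes and lists were chosen with earlier results of these data known. Named were the 10 marker genes, Rps19bp1, called genes of the 4 pathway lists (otherwise the 2 with the smallest p), and the most abundant and smallest-p gene of each cell type list, unless stated. Of these, 1 gene is not reported here. Alternatives were a pseudocount of 0.1 or 5, no filter or a mean of 5 TPM, quantile, median-ratio or mitochondria- and globin-free scaling, eBayes without trend, array weights, a replicate block and each library left out.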

Additional observations from a re-analysis of the deposited data

Results flagged for a closer look

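Among 76 groups of 4 libraries examined for the named genes, 4 held a library apart from the other 3 by Dixon's criterion, and chance gives about 1 in 20. Aldh1a1 was at 14.8 TPM in control library 1, against 5.11 to 6.05 TPM in the other controls. Pdgfra was at 34.6 TPM in cKO library 1, against 30.3 to 31.04 TPM in the other cKO libraries. Afp was at 9.92 TPM in cKO library 1, against 0.142 to 0.469 TPM in the other cKO libraries. Afp was also listed at 0.0792 TPM in control library 2 and at 0 in the other controls.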

How the results depend on the processing

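Of 179 alternative values of the 10 marker genes, 152 kept direction and side of the threshold, 20 lost the call, 2 gained it and 5 changed sign. The cause of these changes was not tested. Leaving out a library leaves fewer samples. Dropping the filter tests more rows and also changes the SEs (for Tcf21 0.0971 against 0.0910, for Wt1 0.0643 against 0.0665). Without the filter on low values 1 of the 10 genes rose (5 in the main test), 1 of the other epicardial genes (3), 0 of the signals (4), 0 of the transition genes (2) and 1 of the mesenchymal genes (3). With eBayes without trend these counts were 3 for the 10 genes, 1 for the other epicardial genes, 2 for the signals and 0 for the transition genes. A pseudocount of 0.1 or array weights each gave 1 transition gene. Calls over all rows were 347 without the filter, 609 without trend, 420 with the block and 388 to 936 with a library left out, against 994. Leaving out single libraries gave 2 to 6 of the 10 genes, 1 to 3 other epicardial genes, 0 to 2 signals and 0 to 1 transition genes higher, and 0 to 1 signals and 0 to 1 transition genes lower, the 1 in each case without cKO library 2. It gave log2 changes between -0.11 and 0.34 for Aldh1a1, -0.0408 and 0.20 for Krt19, -0.10 and 0.0450 for Ednrb, and -0.00931 and 0.26 for Lhx9. Ednrb was at 0.0384 after quantile normalization, 0.0121 after median-ratio scaling and 0.0201 after rescaling, against -0.0150 in the main test. The log2 ratio to Wt1 differed by -0.45 to 0.0387 for Aldh1a1, -0.00127 to 0.28 for Msln (-0.0298 with a pseudocount of 5), -0.0350 to 0.0676 for Tbx18 and -0.0293 to 0.16 for Upk1b. The deviations of same-numbered libraries had correlations of -0.0891 to 0.0674. cKO libraries 2 and 3 correlated best with the control library of the same number, cKO libraries 1 and 4 with another. Deviations were taken from the mean of each group of 4, so these correlations cannot decide whether the numbers pair samples. With the replicate block 4 of the 10 genes rose, Gpm6a being lost (limma adjusted p = 0.0662), and 1 signal. Depth is unknown, so low genes such as Msln carry counting error that cannot be separated.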
